A study of Solanum lycopersicum with 3 samples.

Results

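The miR482 and miR5300 superfamily was followed in small RNA libraries of unpollinated tomato ovaries. Its members were all rows of the count table named sly-miR482 or sly-miR5300, which gave 8 mature miRNAs out of 634, and out of the 125 that were known rather than predicted. They were sly-miR482a, sly-miR482b, sly-miR482c, both arms of sly-miR482d and sly-miR482e (5p and 3p, for the side of the hairpin a mature strand comes from), and sly-miR5300. Flower buds of cultivar UC82 received 5 µg of double-stranded RNA against AGL6 (AGL6sil) or against IAA9 (IAA9sil) on layered double hydroxide particles, or the particles alone (ctrl). They were emasculated after 6 h, kept from pollination and harvested after 5 days. AGL6 is a MADS-box factor and IAA9 an auxin response repressor, and both hold back ovary growth before fertilization. The sample titles place the ovaries of every library before anthesis and name those of ctrl WT (wild type). The labels name the ovaries detached, although the treatment text leaves the buds on the plants. Each condition is 1 library from 1 pool of ovaries, so every value compares these libraries and not the conditions, no test was possible and the spread between pools is unknown. AGL6 and IAA9 transcripts and ovary markers cannot be read from miRNA counts and were not analysed here.

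The libraries held between 1038064 and 1460919 counted miRNA reads, with the most in AGL6sil. By clean reads AGL6sil was the smallest, at 0.857 times ctrl, with IAA9sil at 0.916 times. The 8 members together took 74478 reads in AGL6sil and 46077 in IAA9sil, against 48454 in ctrl. This is 5.10% of all counted miRNA reads in AGL6sil (95% Clopper-Pearson interval 5.06 to 5.13%) and 4.38% in IAA9sil (4.34 to 4.42%), against 4.67% in ctrl (4.63 to 4.71%). Intervals here and below cover counting error only and treat each read as a separate draw. PCR copies could not be told from separate molecules, so the intervals may be too narrow. The comparison of the family's total with ctrl depended on how the libraries were scaled. Its log2 ratio in AGL6sil was −0.47 with the library median used below, 0.13 with the total miRNA count, 0.84 with the clean reads and 1.01 with the median of known miRNAs. In IAA9sil it ran from −0.29 with the library median to 0.05 with the clean reads. Whole ovaries were sequenced, so fewer cells that make a miRNA and less of it per cell cannot be told apart.

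Members of the superfamily pair with the stretch of NBS-LRR mRNAs that encodes the P-loop, the nucleotide-binding motif of these intracellular immune receptors. The strand that acts on the receptor transcripts comes from the 3p side of the hairpin. Longer-than-usual members of this kind start the production of secondary, phased siRNAs from the cleaved receptor transcript, which spreads silencing to related receptor genes. In tomato, infection by viruses and bacteria is known to lower miR482 and to release receptor mRNAs, and miR5300 has been linked to resistance against Fusarium wilt. The 5p strands of miR482 hairpins are usually regarded as the passenger strands.

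Mature sequences were at hand for only 4 of the 8 members, from the study's own sequence lists, and all 4 are shown. They are also the members called in either comparison below. The uncalled members had no sequence there and could not be compared. The capitals mark the seed, bases 2 to 8 counted from the 5′ end.
sly-miR482a: uUUCCAAUuccacccauuccua
sly-miR5300: uCCCCAGUccaggcauuccaac
sly-miR482e-5p: uGUGGGUGggguggaaagauu
sly-miR482d-5p: gGAGUGGGugggauggaaaaa

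The first pair are of the receptor-directed kind. Both sly-miR482a and sly-miR5300 are 22 nt long and begin with U. Aligned without gaps, with sly-miR5300 starting 1 base further in, they match at 15 of 21 bases. Without that offset, their seeds at the same positions share 4 of 7 bases. Whether this changes the transcripts they pair with was not tested. The other pair are 5p strands of 21 nt. sly-miR482e-5p and sly-miR482d-5p match at 16 of 19 bases when offset by 2, and share the run GUGGGUGGG of 9 bases. Each holds 11 G and 0 C, whereas sly-miR482a holds 0 G and 9 C, and sly-miR5300 holds 3 G and 10 C. No seed was shared by any pair of the 4.

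RefSeq lists 6 genes in the tomato assembly SLM_r2.1 for these members, of which only names and neighbours were used. MIR482d, MIR482b and MIR482c lie in a cluster, with 1 listed gene between MIR482d and MIR482b and 0 between MIR482b and MIR482c. MIR5300 and MIR482e are on a shared chromosome but 1847 listed genes apart, and MIR482a has no other member on its chromosome. MIR482e carries the older name MIR5301, next in number to MIR5300.

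The 3p member of sly-miR482e was the most abundant of the family in every library, with 33921 reads in AGL6sil and 23545 in IAA9sil, against 17945 in ctrl. Among the 125 known miRNAs it ranked 9, 11 and 11 in these libraries. sly-miR482b, also strongly expressed, had 17754 reads in AGL6sil and 9600 in IAA9sil, against 10757 in ctrl. The clustered members sly-miR482c and sly-miR482d-3p were far less abundant than these. sly-miR482c had 2179 reads in AGL6sil and 1635 in IAA9sil, against 1323 in ctrl. For sly-miR482d-3p the counts were 2492 in AGL6sil and 1899 in IAA9sil, against 1735 in ctrl. These 4 members kept the same order relative to each other in all 3 libraries, sly-miR482e-3p first and sly-miR482c last.

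Of the remaining members, sly-miR5300 and sly-miR482d-5p ranked 7 and 8 of the family in every library, whereas sly-miR482a and sly-miR482e-5p changed place. sly-miR482a stood at 16035 reads in AGL6sil and 3849 in IAA9sil, against 2174 in ctrl, so AGL6sil was far above both other libraries. sly-miR482e-5p ran the opposite way, with 1860 reads in AGL6sil and 4848 in IAA9sil, against 14078 in ctrl. It ranked 6 of the 8 members in AGL6sil, behind sly-miR482c, and 2 in ctrl, behind only its own 3p strand. sly-miR5300 had 228 reads in AGL6sil and 678 in IAA9sil, against 417 in ctrl, lowest in AGL6sil and highest in IAA9sil. sly-miR482d-5p was close to the limit of counting, with 9 reads in AGL6sil (Poisson interval 4.1 to 17.1) and 23 in IAA9sil (14.6 to 34.5), against 25 in ctrl (16.2 to 36.9).

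**Figure D1:**
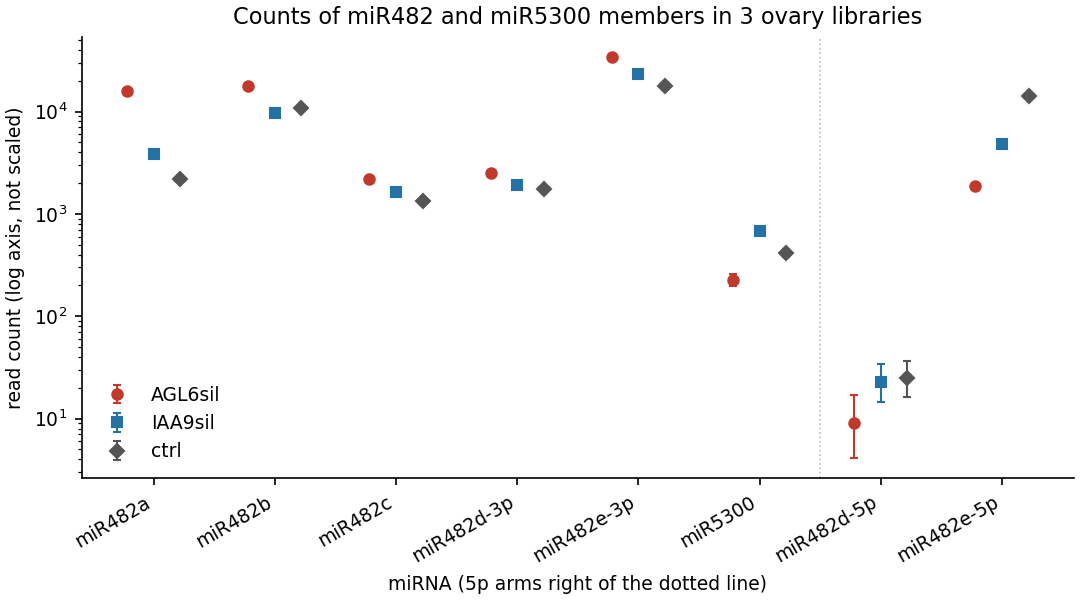
Read counts of the 8 members in AGL6sil (circles), IAA9sil (squares) and ctrl (diamonds) on a log axis, not scaled for depth, with bars for the 95% Poisson interval. sly-miR482a is highest in AGL6sil with 16035 reads, and sly-miR482e-5p is highest in ctrl with 14078.

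Within a library, neighbours in this order differed beyond counting error in each of the 3 libraries, since the interval of every ratio of neighbours excluded 1. The closest neighbours were sly-miR482b and sly-miR482a in AGL6sil, at a ratio of 1.11 (interval 1.08 to 1.13), which in ctrl were 4.95-fold apart (4.72 to 5.18). How reads that match more than 1 member were assigned is not given in the sources used here, so the split between closely related 3p members is uncertain. Differences between miRNAs in their capture during library making were not measured either, so the order is one of reads.

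To compare libraries, each was divided by its median count over all 634 miRNAs, and the log2 ratio to ctrl was taken. A miRNA was called where its reads summed to at least 50 and its ratio was at least 1.5 in size on the log2 scale, a 2.83-fold difference. All 8 members passed the read limit, sly-miR482d-5p only just with 57 reads. The next lowest member, sly-miR5300, had 1323. On this scale the 374 miRNAs past the limit had a median log2 ratio of −0.12 in AGL6sil and −0.04 in IAA9sil, and the 91 known ones −1.20 and −0.02. The 8 members had medians of −0.47 and 0.00.

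In AGL6sil 3 members were called lower than ctrl and 1 higher. Of all miRNAs past the limit, 13.6% were called lower and 7.75% higher, and of the known ones 42.9% and 4.4%. The 3 of 8 members called lower are thus near the share among known miRNAs. In IAA9sil 1 member was called lower and 0 higher, against 4.55% lower and 2.41% higher among all miRNAs past the limit, and 6.59% and 0% among the known ones. The ctrl library is shared by both comparisons, and any error in its counts with it.

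sly-miR482a was the member called higher in AGL6sil, at a log2 ratio of 1.79 (interval 1.73 to 1.86), a 3.46-fold difference. Its ratio in IAA9sil was 0.61 (0.53 to 0.68), which is 1.52-fold and was not called. It was the only member above ctrl in AGL6sil on this scale. Across 7 ways of scaling, its ratio ran from 1.79 to 3.28 in AGL6sil and from 0.61 to 0.95 in IAA9sil, so its direction and its call did not depend on the scale. Set directly against IAA9sil, its level in AGL6sil was higher by a log2 ratio of 1.18 (1.13 to 1.24).

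sly-miR482e-5p, the abundant 5p strand, was called lower in both silenced libraries. The log2 ratios were −4.01 in AGL6sil (−4.08 to −3.94) and −1.75 in IAA9sil (−1.80 to −1.71), 16.1-fold and 3.37-fold below ctrl. Under the 7 scalings the ratio in AGL6sil stayed between −4.01 and −2.53 and was called each time. In IAA9sil it lay between −1.75 and −1.41 and was called in 6 of 7, the exception being the clean reads of each library as the scale.

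sly-miR5300, the second receptor-directed name of the superfamily, differed in opposite directions. It was called lower in AGL6sil at −1.96 (−2.20 to −1.72), and in IAA9sil its ratio was 0.49 (0.31 to 0.66), above ctrl but not called. These signs held under each of the 7 scalings, with −1.96 to −0.48 in AGL6sil and 0.49 to 0.83 in IAA9sil, although the call in AGL6sil was made in only 3 of them. Between the silenced libraries it was 5.45-fold lower in AGL6sil than in IAA9sil (log2 ratio −2.45, interval −2.67 to −2.23). This was the most negative of the 8 members in that comparison. Its interval overlapped those of sly-miR482e-5p at −2.26 (−2.33 to −2.18) and sly-miR482d-5p at −2.23 (−3.52 to −1.06).

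sly-miR482d-5p was called lower in AGL6sil at −2.56, but on 9 reads its interval reached from −3.85 to −1.42 and so included the threshold. It was called in 4 of 7 scalings. In IAA9sil the ratio was −0.34 (−1.22 to 0.54), which at this depth could not be told from ctrl.

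The other 4 members were the 3p strands and arm-less names sly-miR482b, sly-miR482c, sly-miR482d-3p and sly-miR482e-3p. They differed less from each other than from the called members in AGL6sil, which follows in part from sorting members by these same ratios. Their log2 ratios lay between −0.57 and −0.17 in AGL6sil, a window of 1.32-fold, and between −0.38 and 0.18 in IAA9sil, a window of 1.47-fold. None was called in either library. In AGL6sil all 4 were below ctrl with 3 of the scalings and above it with 4, reaching 1.31 for sly-miR482e-3p, so their direction there is set by the scale. In IAA9sil sly-miR482b was below ctrl under every scaling (−0.38 to −0.04), and sly-miR482e-3p (0.18 to 0.52) and sly-miR482c (0.09 to 0.43) were above it, while the sign of sly-miR482d-3p depended on the scale.

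**Figure D2:**
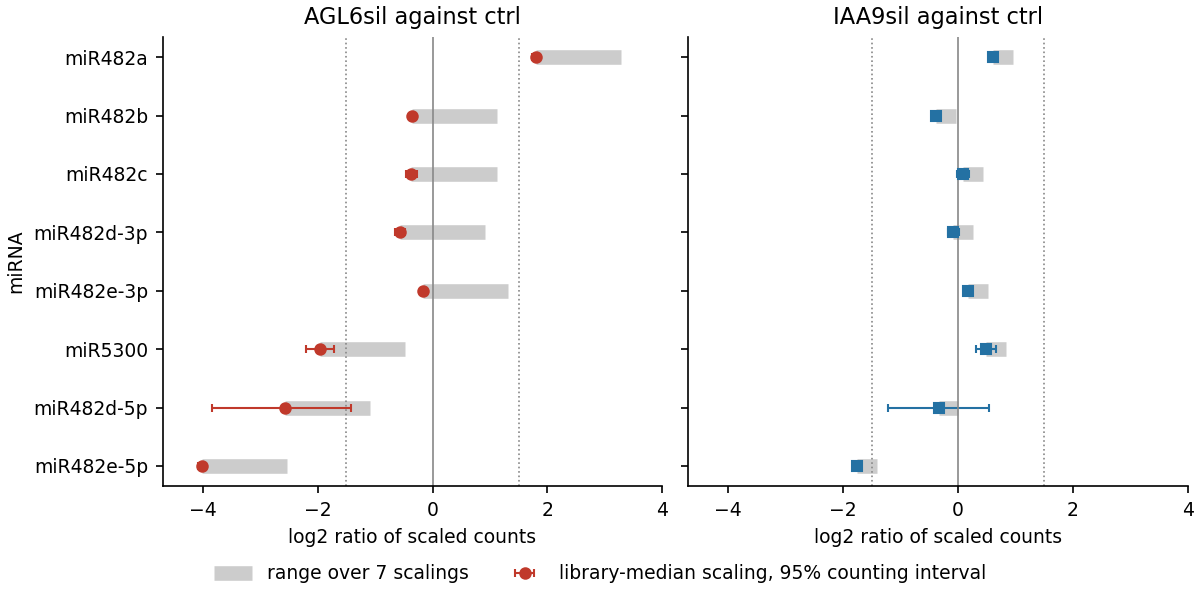
Log2 ratios of scaled counts to ctrl for each member in AGL6sil (left) and IAA9sil (right), with points at the library-median scale, thin bars for the 95% counting interval, grey bands for the range over 7 scalings and dotted lines at 1.5 in either direction. In AGL6sil sly-miR482a (1.79) and sly-miR482e-5p (−4.01) lie past the lines over their whole band, and the 4 uncalled members change sign within theirs.

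Comparisons between members inside a library need no scaling. Relative to sly-miR482b, sly-miR482a was 0.903 times as abundant in AGL6sil (0.884 to 0.923) and 0.401 times in IAA9sil (0.386 to 0.416), against 0.202 times in ctrl (0.193 to 0.212). Its standing against this sister miRNA was thus 4.47-fold higher in AGL6sil and 1.98-fold higher in IAA9sil than in ctrl. sly-miR5300 stood at 0.0128 of sly-miR482b in AGL6sil (0.0112 to 0.0146) and 0.0706 in IAA9sil (0.0652 to 0.0764), against 0.0388 in ctrl (0.0351 to 0.0428), so its order across libraries was not that of sly-miR482a. The ratio that differed most between AGL6sil and ctrl was that of sly-miR482a to sly-miR482e-5p. It was 8.62 in AGL6sil (8.22 to 9.05) and 0.794 in IAA9sil (0.761 to 0.828), against 0.154 in ctrl (0.148 to 0.162), which turns the order of these members round.

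As a share of the family's reads, sly-miR482a made up 21.5% in AGL6sil (21.2 to 21.8%) and 8.35% in IAA9sil (8.10 to 8.61%), against 4.49% in ctrl (4.30 to 4.67%). sly-miR482e-5p made up 2.50% in AGL6sil (2.39 to 2.61%) and 10.5% in IAA9sil (10.2 to 10.8%), against 29.1% in ctrl (28.7 to 29.5%). These shares sum to the whole, so a lower share of 1 member lifts those of the others. sly-miR482e-3p took 45.5% of all members in AGL6sil and 51.1% in IAA9sil, against 37.0% in ctrl. Among the 6 members without the 5p strands, however, it took 46.7% in AGL6sil and 57.1% in IAA9sil, against 52.2% in ctrl, so that in AGL6sil the order turned round. sly-miR482b lay between 20.8% and 23.8% of all members, but without the 5p strands it took 24.5% in AGL6sil and 23.3% in IAA9sil, against 31.3% in ctrl. The higher share of sly-miR482a did not depend on the 5p strands, with 22.1% in AGL6sil and 9.34% in IAA9sil, against 6.33% in ctrl. sly-miR482c and sly-miR482d-3p each lay between 2.73% and 4.12% of all members.

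**Figure D3:**
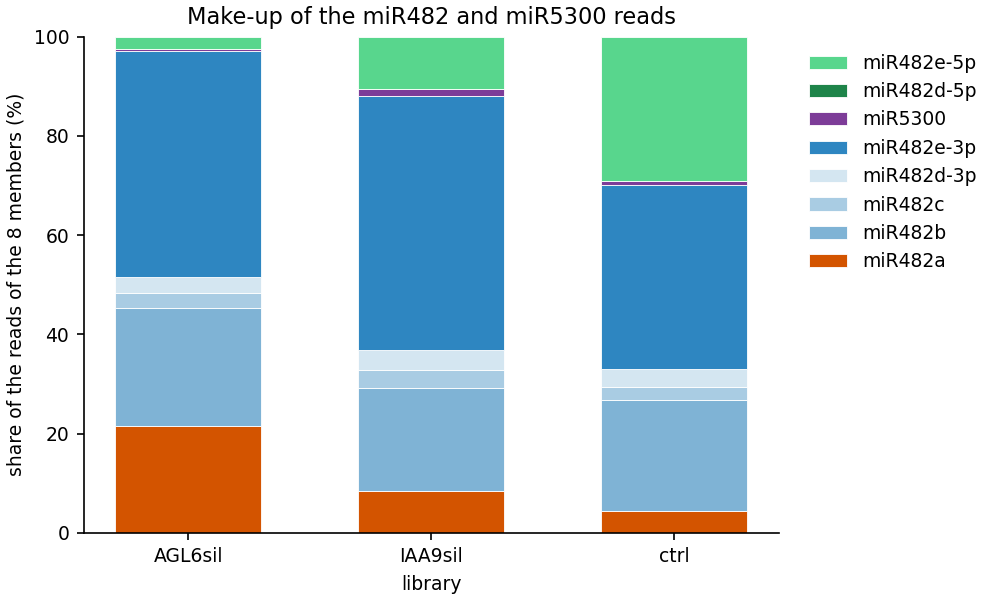
Stacked bars give the share of each member in the reads of all 8 members, in percent, for AGL6sil, IAA9sil and ctrl. The share of sly-miR482a is 21.5% in AGL6sil and 4.49% in ctrl, and that of sly-miR482e-5p is 2.50% in AGL6sil and 29.1% in ctrl.

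Without the 5p strands, the other 6 members summed to 72609 reads in AGL6sil and 41206 in IAA9sil, against 34351 in ctrl. On the library-median scale, the log2 ratio of this sum to that in ctrl was −0.01 for AGL6sil (−0.03 to 0.01) and 0.05 for IAA9sil (0.03 to 0.07). Scaled by clean reads the values were 1.30 and 0.39, and by the total miRNA count 0.59 and 0.24. The summed level of the receptor-directed strands in AGL6sil therefore ranged from −0.01 to 1.47 on the log2 scale, the highest value with the median of known miRNAs.

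The arms of sly-miR482e come from the same hairpin, and their ratio within a library needs no scaling. In the silenced libraries the 3p strand prevailed, whereas in ctrl the arms were almost balanced. The 5p strand was 5.20% of the reads of both arms in AGL6sil (4.97 to 5.43%) and 17.1% in IAA9sil (16.6 to 17.5%), against 44.0% in ctrl (43.4 to 44.5%). There were 18.2 reads of the 3p strand for each 5p read in AGL6sil and 4.86 in IAA9sil, against 1.27 in ctrl. Relative to ctrl, the log2 ratio of 5p to 3p differed by −3.84 in AGL6sil (95% Wald interval −3.91 to −3.76), which is 14.3-fold, and by −1.93 in IAA9sil (−1.98 to −1.88), which is 3.81-fold.

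The hairpin of sly-miR482d was one-sided everywhere. Its 5p strand, similar in sequence to that of sly-miR482e as printed above, made up 0.360% of both arms in AGL6sil (0.165 to 0.682%) and 1.20% in IAA9sil (0.760 to 1.79%), against 1.42% in ctrl (0.921 to 2.09%). Relative to ctrl the log2 ratio of its arms was −2.00 in AGL6sil (−3.10 to −0.89) and −0.25 in IAA9sil (−1.07 to 0.57). The balance thus shifted towards 3p in AGL6sil for both hairpins, and in IAA9sil the interval of sly-miR482d included 0 while that of sly-miR482e did not.

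Of the 28 precursors listed with both arms, 16 had at least 50 reads on each. In AGL6sil the balance moved towards 3p in 12 of the 16 and towards 5p in 4, with a median of −1.55 on the log2 scale, so a shift of this sign was common in that library. Counted instead by the arm with fewer reads over the 3 libraries, that arm fell against its partner in 11 of the 16 in AGL6sil and in 6 in IAA9sil. It is the 5p strand in both miR482 hairpins, and it was picked from these same counts. Whether passenger strands as a class were lower was not tested. The change of sly-miR482e was the most negative of the 16 in AGL6sil, next to sly-miR166c at −3.45, and sly-miR482d had rank 5. Only sly-miR394 changed by more in size than sly-miR482e, towards 5p, on 1 read of its 3p strand in AGL6sil. In IAA9sil the 16 had a median of 0.05, with 7 towards 3p and 9 towards 5p, and sly-miR482e had the largest change in size, ahead of sly-miR394 at 1.85.

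**Figure D4:**
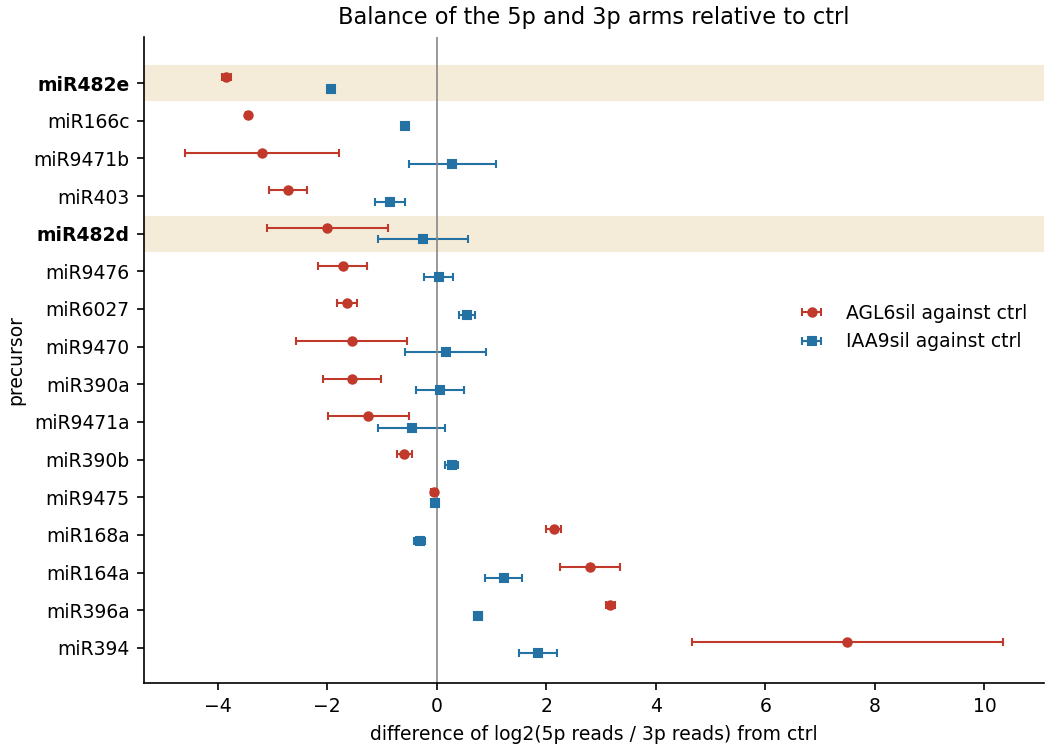
Difference from ctrl of the log2 ratio of 5p to 3p reads for the 16 precursors with at least 50 reads on each arm, in AGL6sil (circles) and IAA9sil (squares), with 95% Wald intervals of the counts and the miR482 hairpins shaded. sly-miR482e has the most negative value in both libraries, −3.84 and −1.93.

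Likeness was measured by the Euclidean distance of the pair of log2 ratios, which rest on 3 libraries with a shared ctrl. The known miRNAs most like each called member were the nearest of the 91 past the read limit, the member itself left out. For sly-miR482e-5p these were sly-miR166c-5p (7001 reads in AGL6sil and 39869 in IAA9sil, against 80691 in ctrl, distance 0.80), sly-miR390a-5p (0.86) and sly-miR403-5p (0.86), which like it are 5p strands. For sly-miR482a the nearest was sly-miR9474-5p at 0.10, with only 61, 15 and 8 reads, and the next, sly-miR7981a and sly-miR397-3p, were already 1.01 and 1.07 away. For sly-miR5300 they were sly-miR9476-3p, sly-miR164b-3p and sly-miR394-5p, at 0.32 to 0.34, and for sly-miR482d-5p sly-miR9470-5p, sly-miR167b-5p and sly-miR172c, at 0.37 to 0.44.

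Other miRNA names of the nightshade family that are known to direct silencing of NBS-LRR or related receptor genes were listed as 6 rows. These were sly-miR6022, sly-miR6023, sly-miR6024, sly-miR6026 and both arms of sly-miR6027, whether or not each arm is the acting strand. Of these 5 passed the read limit, 2 were called lower in AGL6sil and 0 in IAA9sil, and 0 were called higher. Among all known miRNAs past the limit, 42.9% were called lower in AGL6sil and 6.59% in IAA9sil. The 2 of 5 in AGL6sil are thus near the share among known miRNAs. sly-miR6024 had 60 reads in AGL6sil and 49 in IAA9sil, against 103 in ctrl, with a log2 ratio of −1.87 in AGL6sil (−2.35 to −1.40) and −1.29 in IAA9sil. sly-miR6027-5p had 494 reads in AGL6sil and 1251 in IAA9sil, against 1067 in ctrl, at −2.20 (−2.36 to −2.05) and 0.01. Its partner sly-miR6027-3p was not called, at −0.56 and −0.54, and the 5p share of both arms was 15.5% in AGL6sil and 45.7% in IAA9sil, against 36.4% in ctrl. In AGL6sil, then, the arms of this hairpin shifted in the direction of those of both miR482 hairpins, and in IAA9sil they shifted the other way. sly-miR6026 was above ctrl in IAA9sil, with 395 reads against 156 and a log2 ratio of 1.12 (0.85 to 1.40), which did not reach the threshold.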

How the data were processed

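Small RNA libraries of AGL6sil, IAA9sil and ctrl ovaries were compared, 1 per condition. The authors removed faulty and adapter reads, mapped the rest to the genome with Bowtie, matched them to miRBase or, with miREvo and mirdeep2, to hairpins they predicted, and deposited unnormalized read counts per mature miRNA. The genome build and the Bowtie version are not given in the sources used here. Columns were matched to samples by the column names in the sample descriptions.

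From these counts, log2 ratios were taken without a pseudocount after scaling by the library median, as in the study, with a limit of 50 reads over the 3 libraries and a threshold of 1.5. Where a count was 0, 3 reads were used. Intervals are 95% Clopper-Pearson intervals of shares or of pairs of counts, exact Poisson intervals of counts, or Wald intervals of differences between arm ratios. Scalings tried were the median of the own class, DESeq2 1.42.0, edgeR 4.0.16 TMM (R 4.3.3), the summed miRNA reads, the number of clean reads in the study, and none. Other alternatives concerned the read limit, a pseudocount of 1, a 1.5-fold threshold and the interval as the criterion. No test was made, because there are no replicates. The script was tested on simulated data with Poisson error only, scaled by the same library totals used to draw them. That test therefore does not bear on the library-median scale or on the spread between pools. The software was Python 3.11.15 with pandas 2.3.3, scipy 1.17.1 and numpy 2.4.6.

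All members are named. Other miRNAs named are the listed receptor-directed miR6022 to miR6027, the 3 known miRNAs nearest to each called member, and at most 3 precursors whose arm balance changed by more than that of a member. The members, lists and settings were chosen with earlier results of these data known. Mature sequences were copied from the study's supplementary lists, without their values. Predicted targets were not analysed here.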

Additional observations from a re-analysis of the deposited data

How the results depend on the processing

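Of 44 recounts of the members called, 39 stayed within 1.5 times the count reported. In AGL6sil the number called lower was 1 in place of 3 with the median of known miRNAs, with the clean reads and without scaling, and sly-miR482e-5p was the member left. In IAA9sil the number called lower was 0 in place of 1 with the clean reads, and the number called higher was 1 in place of 0 at a 1.5-fold threshold. With the whole counting interval past the threshold, 2 members were called lower and 1 higher in AGL6sil. No called ratio changed sign under any of the 7 scalings or with a pseudocount. The factor that divides AGL6sil was 1.09 on the log2 scale with the library median, 0.49 with the total miRNA count, −0.22 with the clean reads and −0.39 with the median of known miRNAs, and moves every ratio of AGL6sil alike. For IAA9sil it ran only between −0.13 and 0.22. Arm shares and ratios between members need no scale, and the 6 arm shares moved by less than their counting intervals with a pseudocount. Of 39 shares in the family recomputed with another set of members as the whole, 35 moved beyond their counting interval. Depth limits sly-miR482d-5p most, with 57 reads in all. No paired analysis was possible because each condition has 1 library, and no library could be left out.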
